A study of Mus musculus with 16 samples.

Results

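Gfap, Vim, Nes, Synm and Fabp7 are 5 of the 50600 genes counted in this series. They were chosen by name, with earlier results of these data known, as genes whose products mark the passage from neural progenitor to astrocyte. Gfap, Vim, Nes and Synm encode intermediate filament proteins, and Fabp7 encodes a fatty acid binding protein of radial glia and astrocytes. The cells were F1 hybrids of a 129Sv mother and a Cast/EiJ father, so that reads over strain variants could be assigned to an allele. All were derived from a female or a male embryonic stem cell (ESC) line through neural progenitor cells (NPCs), each library coming from a line grown from a single picked NPC colony. The 5 astrocyte libraries came from the female clones 129, C2 and G4 and the male clones mC3 and mE6, after 48 h in N2B27 medium with 1 ng/mL FGF2 and 10 ng/mL BMP4. The 3 poly(A) NPC libraries came from the female clone F5 and the male clones mG2 and mG6, grown with EGF and FGF2 at 10 ng/mL each. A further 8 NPC libraries, 2 for each of the male clones Ch3, Ch5, Ch7 and Ch8 in the same medium, were made after ribosomal RNA depletion. No agent other than these growth factors was applied. Astrocytes and poly(A) NPCs of this series came from different clones, with 1 library per clone. Within these libraries a clone cannot be followed from one state to the other, and differences between astrocyte clones have no replicate check.

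Intermediate filaments are rope-like polymers of the cytoplasm whose protein makeup changes as neural cells mature. Progenitors build them from vimentin and nestin, and nestin cannot form filaments alone, whereas astrocytes add glial fibrillary acidic protein (GFAP), the classical marker of the cell type. Synemin is a large partner that links such filaments to other structures, and BMP signalling is known to drive progenitors out of the cell cycle towards astrocytes.

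The bases just upstream of the annotated starts are shown for Gfap and Nes, the genes among the 5 that differed most between the cell types, and for Vim, whose alleles lay apart in astrocytes. The sequences are those of RefSeq on GRCm38.p6, 5′ to 3′ on the strand of each gene. Capitals mark matches on either strand to the letters of 3 motifs. One is the TATA box, searched as TATAAA. The next is the CCAAT box, searched by the letters of its name. The last is the half-site of nuclear factor I, searched as TTGGC. They cover chr11:102897201-102897450 on the minus strand, chr2:13574061-13574310 on the plus strand and chr3:87970843-87971092 on the plus strand.
Gfap: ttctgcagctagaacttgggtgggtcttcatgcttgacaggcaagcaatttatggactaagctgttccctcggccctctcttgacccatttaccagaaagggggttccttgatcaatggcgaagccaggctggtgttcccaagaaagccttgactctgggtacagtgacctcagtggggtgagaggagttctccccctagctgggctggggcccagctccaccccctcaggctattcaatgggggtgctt
Vim: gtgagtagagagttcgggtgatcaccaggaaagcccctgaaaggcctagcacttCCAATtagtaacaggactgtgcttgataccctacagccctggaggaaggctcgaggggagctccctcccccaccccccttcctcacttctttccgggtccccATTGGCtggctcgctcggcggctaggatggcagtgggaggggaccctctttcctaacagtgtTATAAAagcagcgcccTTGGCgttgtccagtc
Nes: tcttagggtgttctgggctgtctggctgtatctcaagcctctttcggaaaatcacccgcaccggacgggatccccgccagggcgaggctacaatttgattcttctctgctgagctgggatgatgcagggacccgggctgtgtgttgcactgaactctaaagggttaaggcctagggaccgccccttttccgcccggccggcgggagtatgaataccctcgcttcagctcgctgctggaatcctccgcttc
The Vim window held 1 TATA box, 2 CCAAT boxes and 2 half-sites, and 1 CCAAT match on the opposite strand shares 4 letters with a half-site. The same letters were absent from the Gfap and Nes windows. The Synm window held 1 CCAAT match and 1 half-site, and the Fabp7 window held 2 CCAAT matches and 1 half-site. Of 32851 promoter windows of 250 bases, 12.4% held the TATA box, 33.8% the CCAAT box and 41.5% the half-site. A STAT site (TTCNNNGAA, either strand) was in none of the 5 windows and in 7.02% of all. These matches describe letters and not binding.

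Sequencing gave 78257443 to 93963293 reads on genes per astrocyte library, 69925081 to 105892734 per poly(A) NPC library and 20871111 to 30920672 per ribosomal RNA-depleted library. Allele-specific reads were 33.4 to 34.8% of these in astrocytes, 30.5 to 31.8% in poly(A) NPCs and 18.9 to 21.1% in the depleted libraries. The cell type labels were set against marker lists, given as CPM (reads scaled to library size, after TMM normalization). All 15 proliferation markers fell, with sums of 86.9 to 142.0 CPM in astrocytes and 2016 to 2563 CPM in NPCs. Of 20 astrocyte markers, 5 rose (Aqp4, Slc1a2, Ndrg2, Id3 and Clu) and Aldh1l1 fell, 30% of the list where 25.5% of all genes passed the same test, with summed levels of 3649 to 8471 CPM in astrocytes and 2576 to 3520 CPM in NPCs. Of 13 progenitor markers, 4 fell (Sox3, Egfr, Olig2 and Msi1) and 9 did not pass the test, where 25.5% of all genes passed. Their sums overlapped, at 3257 to 5703 CPM in astrocytes and 3676 to 4643 CPM in NPCs, and did not set the cell types apart. Clones 129, mC3 and mE6 lay above all NPC clones in this sum. Its most abundant gene was Ccnd2, at a mean of 3610 CPM in astrocytes and 2087 CPM in NPCs. Summed markers of neurons reached 64.3 CPM in astrocytes and 100.8 CPM in NPCs, those of microglia 11.5 and 10.9 CPM, of ependyma 12.7 and 37.1 CPM and of pluripotent cells 6.55 and 6.69 CPM. Microglial Itgam and Tyrobp and endothelial Cldn5 had 0 reads in all 8 poly(A) libraries. Mesenchymal and feeder markers summed to 66.5 to 320.5 CPM in astrocytes and 113.9 to 135.0 CPM in NPCs, and endothelial markers to 21.2 to 109.3 and 5.05 to 7.82 CPM, led by Kdr in astrocytes (17.9 to 104 CPM) and by Tek in NPCs on average (3.31 CPM). Oligodendrocyte lineage markers, mostly Olig1 and Olig2, summed to 348 to 1788 and 1847 to 2113 CPM. The part of these other cell types' markers in the results was not tested.

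The first comparison asked how the 5 genes differed between astrocytes and NPCs, both from poly(A)-enriched RNA. The sample titles carry codes of unstated meaning, 1 for the 3 NPC libraries and 2 others for the astrocytes, so that this code and the cell type cannot be told apart. Gfap rose and Nes fell, and the fall of Nes was far larger than the differences among clones of either group. For Gfap, the highest astrocyte clone held 30.2 times the lowest, and that lowest held 30.9 times the highest NPC clone. Vim, Synm and Fabp7 did not pass the test, whose threshold was an adjusted p of 0.05 (edgeR quasi-likelihood F-test, Benjamini-Hochberg over 18192 genes). Of all genes tested, 25.5% passed, 13% being higher and 12.6% lower in astrocytes, so that a call as such is common here. The median log2 fold change was −0.49 over the 5 genes and 0.08 over all genes tested.

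Gfap (ENSMUSG00000020932.14, chr11:102887336-102897200) was read at 1977 CPM in clone 129, 65.4 CPM in C2, 224 CPM in G4, 165 CPM in mC3 and 254 CPM in mE6. In NPCs it was at 0.67 CPM in F5, 2.12 CPM in mG2 and 1.82 CPM in mG6. Every astrocyte clone lay above every NPC clone, where 33.5% of the tested genes with a symbol had groups that did not overlap. The lowest astrocyte value of Gfap was 30.9 times the highest NPC value. The mean rose from 1.54 ± 0.77 CPM (SD, n = 3) to 537 ± 808 CPM (SD, n = 5), a log2 fold change of 8.45 ± 1.55 (SE, adjusted p = 0.00674). Within the male clones it was 6.74 (adjusted p = 0.00318 by edgeR). The 8 depleted NPC libraries, scaled separately, held 0.43 to 4.37 CPM.

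Nes (ENSMUSG00000004891.16, chr3:87971093-87980451), which encodes nestin, was at 75.5 CPM in clone 129, 115 CPM in C2, 61.7 CPM in G4, 121 CPM in mC3 and 95.2 CPM in mE6. It stood at 1066 CPM in F5, 1148 CPM in mG2 and 1682 CPM in mG6. The groups did not overlap, as was so for 33.5% of the tested genes with a symbol. The lowest NPC value of Nes was 8.82 times the highest astrocyte value. Nes fell by 3.79 ± 0.28 on the log2 scale (adjusted p = 9.74e-05), from 1299 ± 335 CPM (SD, n = 3) to 93.7 ± 25.3 CPM (SD, n = 5). The transcript was still read in every astrocyte clone, on at least 4757 reads. The proliferation markers fell along with Nes in these libraries, and their part in its level was not tested. In bulk RNA, fewer cells with a transcript and less of it per cell cannot be told apart.

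Vim (ENSMUSG00000026728.9, chr2:13574311-13582826), the vimentin gene, was at 945 CPM in clone 129, 977 CPM in C2, 747 CPM in G4, 889 CPM in mC3 and 1052 CPM in mE6. It was at 1209 CPM in F5, 1419 CPM in mG2 and 1264 CPM in mG6. All astrocyte values were below all NPC values, a separation seen for 33.5% of the tested genes with a symbol. The log2 fold change was −0.49 ± 0.19 (SE), with an adjusted p of 0.0843 by edgeR and of 0.0192 by DESeq2, so that the call depends on the tool. The means were 922 ± 114 CPM (SD, n = 5) in astrocytes and 1297 ± 109 CPM (SD, n = 3) in NPCs.

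Fabp7 (ENSMUSG00000019874.11, chr10:57784923-57788450) was at 104 CPM in clone 129, 95.1 CPM in C2, 512 CPM in G4, 660 CPM in mC3 and 851 CPM in mE6. It was at 2659 CPM in F5, 1992 CPM in mG2 and 859 CPM in mG6. The highest astrocyte clone and the lowest NPC clone were nearly level, and both groups were widely spread. The log2 fold change was −2.05 ± 0.74 (SE), with an adjusted p of 0.0743 by edgeR and of 0.0262 by DESeq2. Within the male clones it was −0.91 (adjusted p = 0.196 by edgeR). Its means were 445 ± 337 CPM (SD, n = 5) and 1837 ± 910 CPM (SD, n = 3).

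Synm (ENSMUSG00000030554.16, chr7:67730161-67759742), the synemin gene, was per exon length the least abundant of the 5 in astrocytes. It was at 3.31 CPM in clone 129, 16.5 CPM in C2, 18.7 CPM in G4, 2.95 CPM in mC3 and 1.87 CPM in mE6. In NPCs it was at 4.10 CPM in F5, 6.71 CPM in mG2 and 9.31 CPM in mG6. C2 and G4 lay above all NPC clones and the other 3 astrocyte clones below all of them. Means were 8.66 ± 8.21 CPM (SD, n = 5) and 6.71 ± 2.61 CPM (SD, n = 3), and the log2 fold change of 0.37 ± 0.81 (SE) did not pass the test (adjusted p = 0.776 by edgeR). Its sign rested on C2 and G4, being −0.02 without C2 and −0.14 without G4. Within the male clones the log2 fold change was −1.73 (adjusted p = 0.038 by edgeR). C2 and G4 share a title code that the other astrocyte clones lack, and with those others alone the value was −1.33 (adjusted p = 0.0736).

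**Figure D1:**
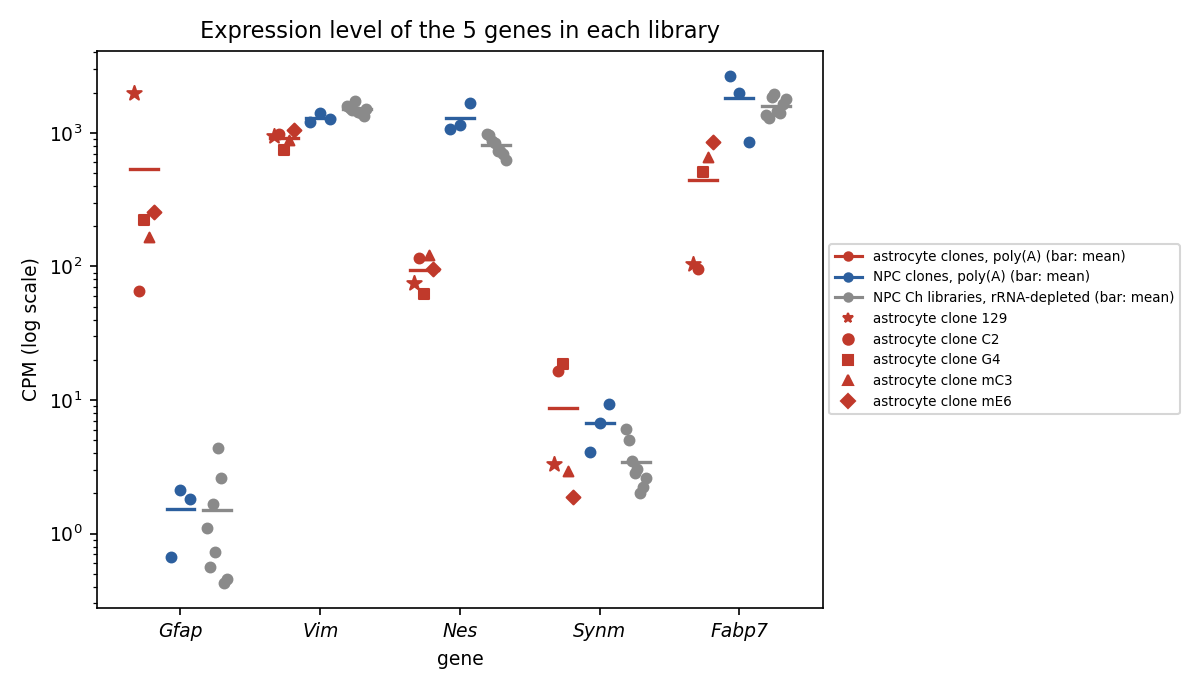
CPM of the 5 genes (log axis) in the 5 astrocyte libraries (red, 1 symbol per clone), the 3 poly(A) NPC libraries (blue) and the 8 ribosomal RNA-depleted NPC libraries (grey, scaled separately), with bars at the mean of each group. Gfap lies between 65.4 and 1977 CPM in astrocytes and at 2.12 CPM or less in poly(A) NPCs, Nes is lower in all astrocyte clones, and Synm is split between 2 high and 3 low clones.

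To compare the filament genes with each other, CPM were divided by exon length, which is 4218 bp for Gfap, 2335 bp for Vim, 6416 bp for Nes and 7931 bp for Synm. Vim supplied most filament transcript in 7 of the 8 poly(A) libraries, with Nes second in NPCs and Gfap second in 3 of the astrocyte clones. Of the summed level per kilobase, Nes made up 24.3% in F5, 22.7% in mG2 and 32.6% in mG6, against 1.33 to 4.29% in astrocytes. Gfap made up 52.9% in clone 129, 3.42% in C2, 13.8% in G4, 8.90% in mC3 and 11.5% in mE6, and at most 0.06% in NPCs. C2 held slightly more Nes (3.95%) than Gfap per length, in contrast to the other 4 clones. Vim made up 45.7% in clone 129 and 83.1 to 92.2% in the other astrocyte clones, beside 67.2 to 77.1% in NPCs. Synm stayed at or below 0.61% in all 8. The summed level of the 4 genes was 885 CPM per kilobase in clone 129 and 385 to 526 in the other astrocyte clones, and 684 to 805 in NPCs.

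**Figure D2:**
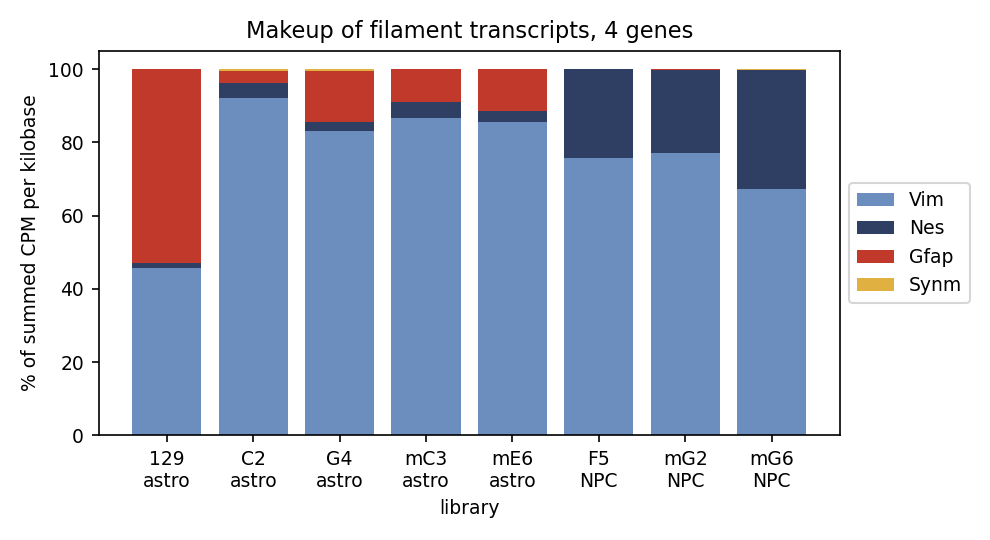
Share of each of 4 filament genes in their summed CPM per kilobase, in percent, for the 5 astrocyte and 3 poly(A) NPC libraries. Vim holds 45.7 to 92.2% throughout, Nes holds 22.7 to 32.6% in NPCs and 1.33 to 4.29% in astrocytes, and Gfap ranges from 3.42 to 52.9% between astrocyte clones.

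The astrocyte clones differed widely in Gfap, Synm and Fabp7 and little in Vim. On the log2 CPM scale, the SD over the 5 clones was 1.80 for Gfap, 1.52 for Synm and 1.52 for Fabp7, against 0.41 for Nes and 0.19 for Vim. The median SD of all genes tested was 0.48 in astrocytes and 0.36 over the 3 NPC clones. Gfap thus stood at the 93.1 percentile of all genes, Synm at 90.6, Fabp7 at 90.5, Nes at 42.3 and Vim at 9.30. In NPCs the SDs were 0.89 for Gfap, 0.59 for Synm, 0.85 for Fabp7, 0.35 for Nes and 0.12 for Vim, in the order Gfap, Fabp7, Synm, Nes and Vim. The highest astrocyte clone held 30.2 times the lowest for Gfap, 9.99 times for Synm, 8.95 times for Fabp7, 1.96 times for Nes and 1.41 times for Vim. For Gfap much of this was clone 129, as the next highest clone held 3.89 times the lowest and the SD without clone 129 was 0.88. With clone 129 left out of the comparison with NPCs, the Gfap fold change was 6.86 on the log2 scale and still passed the test.

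Clone 129, the highest in Gfap, was mixed in other astrocyte genes, being the highest clone for 4 of the 20 markers and the lowest for 8. It was highest in Cd44 (807 CPM, against 102 to 481 CPM in the others), Clu (41.4 CPM), Fgfr3 (78.6 CPM) and Sox9 (87.1 CPM). Of the 8 where it was lowest, Gja1 was at 2.66 CPM (54.0 to 132 CPM in the others). Slc4a4 was at 15.1 CPM (105 to 141 CPM) and Glul at 240 CPM (580 to 1088 CPM). Acsbg1 was at 38.5 CPM (110 to 413 CPM) and Apoe at 131 CPM (191 to 590 CPM). Gpc5 and Gjb6 had no reads in it. The markers of clone 129 summed to 3649 CPM, the lowest of the 5 clones, a sum set mostly by a few abundant genes. The clone with the highest sum, mE6 at 8471 CPM, was highest for 9 markers and held the most Fabp7. Slc1a2, a glutamate transporter of astrocytes, was at 274 CPM in clone 129 and 291 to 1107 CPM in the others. Aqp4, the astrocyte water channel, was at 65.9 CPM in clone 129 and 15.9 to 129 CPM in the others. The summed proliferation markers of clone 129, 142 CPM, were the highest of the astrocyte clones and far below any NPC clone.

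Other genes of the filament system were taken from lists of intermediate filament proteins, lamins, cross-linkers, binding proteins and transcription factors. Of 23 intermediate filament genes, 13 were abundant enough to test, 3 rose, 1 fell (Nes) and 9 did not pass. Their median log2 fold change was 0.54, and 25.5% of all genes tested passed. Beside Gfap, Nefh, the heavy neurofilament subunit, rose by 6.92 ± 1.91 on the log2 scale (SE, adjusted p = 0.0307 by edgeR), from 0.12 CPM on average to a range of 0.18 to 52.6 CPM. Bfsp2, a filament protein of the eye lens, rose from 0.42 to 2.44 CPM (2.53 ± 0.54, adjusted p = 0.0124 by edgeR). The keratin genes Krt5, Krt7, Krt8, Krt14, Krt15, Krt17, Krt18, Krt19 and Krt20 were too low to test.

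Of 13 genes of the nuclear lamina, 5 fell, 1 rose and 7 did not pass, with a median log2 fold change of −0.79. Among all genes tested, 25.5% passed and 12.6% were lower in astrocytes. Lmnb1, which encodes a B-type lamin, fell by 3.58 ± 0.47 (SE, adjusted p = 0.00176 by edgeR), from 226 to 18.9 CPM. The log2 fold changes were −1.64 ± 0.23 for Lmnb2, −2.07 ± 0.24 for Tmpo, −1.15 ± 0.28 for Banf1 and −1.77 ± 0.48 for Syne2, whereas Lemd3, an inner nuclear membrane protein, rose by 0.93 ± 0.19. Lmna, the A-type lamin, did not pass the test (1.72 ± 0.84, adjusted p = 0.165 by edgeR). It was at 3.75 CPM in clone 129, below all 3 NPC clones (19.5 to 29.1 CPM), and at 71.6 to 122 CPM in the other 4 astrocyte clones. Clone 129, the highest in Gfap, was thus the lowest in Lmna. Over the 13 lamina genes it was the highest astrocyte clone for 6 and the lowest for 2.

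Of 20 cross-linkers and partners tested, 5 rose, none fell and 15 did not pass, where 25.5% of all genes passed. The median log2 fold change of the 20 was 0.54. Plec, whose product plectin ties intermediate filaments to actin, microtubules and junctions, rose most of these by 4.42 ± 0.51 (SE, adjusted p = 9.37e-04 by edgeR), from 6.87 ± 4.01 CPM (SD, n = 3) to 147 ± 49.9 CPM (SD, n = 5). Its lowest astrocyte clone was at 90.5 CPM and its highest NPC clone at 11.1 CPM. Cryab, a small heat shock protein that binds GFAP filaments, rose by 1.67 ± 0.44 to a mean of 284 CPM. Dtnb and Utrn, of the dystrophin complex, rose by 1.59 ± 0.21 and 1.5 ± 0.41, and Evpl, at 1.15 CPM or less throughout, by 2.12 ± 0.56. The large linkers Macf1 (0.15 ± 0.54) and Dst (0.44 ± 0.46), at means of 639 and 573 CPM in astrocytes, did not pass.

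Of 8 fatty acid and retinoid binding proteins tested, 1 rose and 7 did not pass, where 25.5% of all genes passed. The median of the 8 was 1.02. The one that rose was Fabp4, the adipocyte member, at 0.02 CPM in NPCs and 0.61 CPM in astrocytes. Fabp5, expressed at 395 CPM in NPCs and 342 CPM in astrocytes on average, had a log2 fold change of −0.21 ± 0.49. Of 23 transcription factors known to act on these genes, 6 fell, none rose and 17 did not pass, with a median of −0.18. Over all genes tested, 25.5% passed in either direction and 12.6% were lower in astrocytes. The log2 fold changes were −0.73 ± 0.16 and −0.83 ± 0.25 for the NFI factors Nfia and Nfib, −1.39 ± 0.21 for the BMP effector Smad5 and −1.06 ± 0.29 for Jun. Olig2, a factor of oligodendrocyte and progenitor fate, was at −2.42 ± 0.43, and Pou3f1, of the class of POU factors that bind the Nes enhancer, at −3.92 ± 0.88. Stat3, which acts on Gfap downstream of cytokines, was at 236 CPM in astrocytes and 148 CPM in NPCs on average, with an adjusted p of 0.0688 by edgeR.

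**Figure D3:**
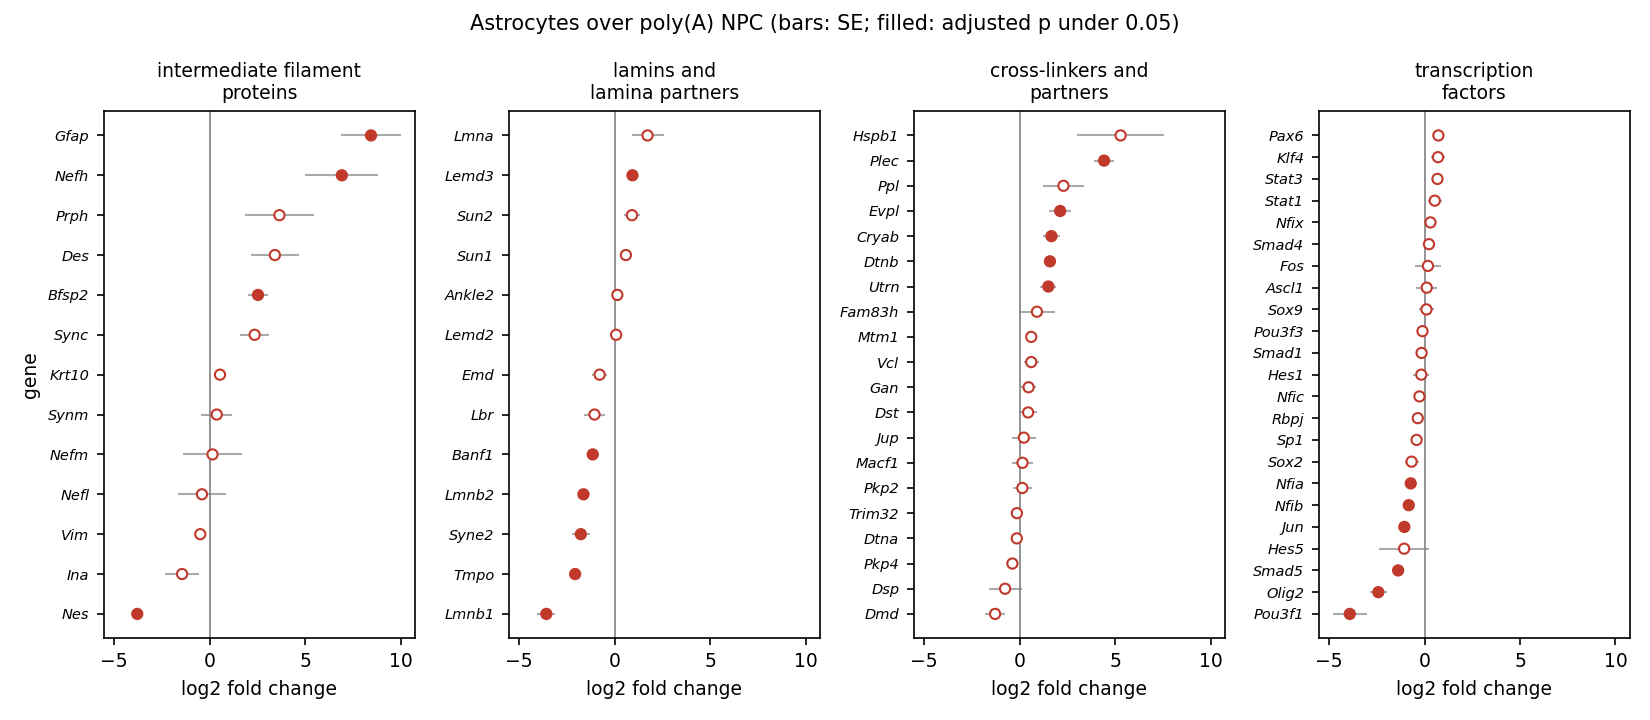
Log2 fold change of astrocytes over poly(A) NPCs (points, with SE as bars) for the tested genes of 4 lists, filled where the adjusted p was under 0.05. Plec and 4 others are the filled points among cross-linkers, all to the right, whereas the 6 filled transcription factors all lie to the left. Of all genes tested, 25.5% passed.

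The genes most like each of the 5 in log2 CPM over the 8 poly(A) libraries, by Pearson's r among 15753 genes with a symbol, are given as a description. The libraries are of astrocytes and NPCs, so that genes with a like shift between these cell types gain a high r. Synm did not pass the test between them. Nes was followed most closely by Haus3, C330027C09Rik, Hmmr, Epn2 and Lpcat2 (r of 0.991 to 0.996), and Gfap by Dcaf6, A930002H24Rik, Itgb1bp3, Glb1l and Gm13270 (0.986 to 0.991). Fabp7 was followed by Anp32e, Slc25a18, Fancl, Smpdl3a and Rps20 (0.973 to 0.986), Vim by Gnpnat1, Api5, Lrrfip1, Slc29a4 and Runx3 (0.963 to 0.976), and Synm by Hoxa3, Fbxo38, Lrrk1, Arhgef11 and Ranbp10 (0.953 to 0.963). Several of these were near the detection limit, such as Lpcat2 at no more than 0.27 CPM. Over the 5 astrocyte clones alone, Gfap was followed by Fam55c, Cd276, Bzw1, Gins1 and 2700033N17Rik (0.994 to 0.999).

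The second comparison asked whether both alleles took part in these changes. The allelic expression ratio is given as percent Cast, the share of allele-specific reads from the paternal Cast allele, with 95% Wilson intervals that cover counting error only. Vim gave more Cast than 129 reads in every astrocyte clone and fewer in every NPC clone. It was at 58.7% Cast (58.3 to 59.1) in clone 129, 62.7% (62.2 to 63.1) in C2, 58.4% (57.9 to 59.0) in G4, 56.4% (55.9 to 56.8) in mC3 and 53.6% (53.2 to 54.0) in mE6. In NPCs it was at 45.4% (45.0 to 45.7) in F5, 48.6% (48.2 to 49.0) in mG2 and 47.4% (47.0 to 47.8) in mG6. The groups did not overlap, and the 8 depleted libraries, at 45.0 to 47.3%, lay with the NPCs. Percent Cast was likewise apart between astrocytes and poly(A) NPCs for 14% of the genes that had 20 or more such reads in all 8 libraries. The medians of the other genes on chromosome 2 were 49.0 to 49.3% in astrocytes and 49.2 to 49.4% in NPCs.

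The log2 ratio of Cast over 129 reads of Vim was 0.63 ± 0.12 (SE) higher in astrocytes, with an adjusted p of 0.0637 over 9076 autosomal genes (edgeR), which misses the threshold. Of these genes, 1.19% passed, 0.573% towards Cast and 0.617% towards 129 in astrocytes, and none of the 5 was among them. Within the male clones the Vim difference was 0.40 (adjusted p = 0.236 by edgeR). An exact two-sided permutation test of percent Cast for this gene alone gave a difference of 10.8 percentage points. Its p of 0.0357, the smallest that 5 against 3 libraries allow, is given by any gene whose groups do not overlap. Against equal expression of both alleles, Vim was shifted in astrocytes (0.47 ± 0.08 towards Cast, adjusted p = 0.00313 by edgeR, where 37.3% of genes passed). In NPCs it was not past the threshold (−0.17 ± 0.10, adjusted p = 0.283 by edgeR, where 25% passed).

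To count by allele, each library was scaled by its size over all reads. The 129 reads of Vim were at 254, 232, 192, 253 and 316 CPM in clones 129, C2, G4, mC3 and mE6. They were at 414, 446 and 419 CPM in F5, mG2 and mG6. Cast reads were at 361, 389, 270, 327 and 365 CPM in the same astrocyte clones and at 344, 422 and 378 CPM in NPCs, and these groups overlapped. The 129 reads fell by 0.77 ± 0.22 on the log2 scale (adjusted p = 0.0352 by edgeR, where 24.6% of genes passed). The Cast reads had a log2 fold change of −0.15 ± 0.23 (adjusted p = 0.665 by edgeR, where 22.2% passed). The difference between the alleles is the one tested above, and this split by allele was chosen after the data had been seen.

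Fabp7 was at 45.9% Cast (43.7 to 48.1) in clone 129, 52.5% (49.9 to 55.0) in C2, 50.4% (49.4 to 51.5) in G4, 45.9% (44.9 to 46.8) in mC3 and 50.4% (49.6 to 51.1) in mE6. It was at 41.2% (40.8 to 41.6) in F5, 42.6% (42.1 to 43.1) in mG2 and 45.6% (44.8 to 46.4) in mG6. The groups did not overlap, as for 14% of the genes with 20 or more allele-specific reads in all 8 libraries. However, mG6 came within 1 percentage point of clones 129 and mC3, and the depleted libraries reached 46.6%. The log2 ratio differed by 0.34 ± 0.11 (adjusted p = 0.204 by edgeR). For the gene alone, the exact permutation test gave 5.88 percentage points and p = 0.0357, which the lack of overlap fixes. In NPCs the ratio was below equality (−0.40 ± 0.09, adjusted p = 0.0159 by edgeR), a call lost without F5 (0.091) or mG2 (0.0782). In astrocytes it was −0.06 ± 0.07 (adjusted p = 0.56 by edgeR). The chromosome 10 medians were 48.4 to 48.7% in astrocytes and 48.3 to 48.6% in NPCs.

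Gfap was read from both alleles in every astrocyte clone, at 45.2% Cast (44.9 to 45.5) in clone 129, 50.7% (48.8 to 52.7) in C2, 49.6% (48.5 to 50.6) in G4, 58.4% (57.3 to 59.6) in mC3 and 46.8% (45.9 to 47.6) in mE6. The very high Gfap of clone 129 therefore came from both alleles, with somewhat more 129 than Cast reads. In NPCs only 41 to 79 allele-specific reads per library were found, and percent Cast was 46.3% (32.1 to 61.3) in F5, 63.4% (51.8 to 73.6) in mG2 and 53.2% (42.3 to 63.8) in mG6. The groups overlapped and the difference of −0.27 ± 0.26 on the log2 scale did not pass (adjusted p = 0.722 by edgeR). Both alleles rose, by 8.29 ± 1.54 for Cast (adjusted p = 0.00861) and 8.84 ± 1.66 for 129 reads (adjusted p = 0.00782, both by edgeR).

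Nes was at 50.3% Cast (48.9 to 51.8) in clone 129, 47.9% (46.6 to 49.2) in C2, 55.6% (53.9 to 57.4) in G4, 47.5% (46.3 to 48.8) in mC3 and 37.5% (36.2 to 38.8) in mE6. NPCs were at 43.6% (43.3 to 44.0) in F5, 47.3% (46.9 to 47.7) in mG2 and 48% (47.7 to 48.3) in mG6. G4 was the highest and mE6 the lowest, on either side of all NPC clones, and the groups overlapped. In G4 the other genes on chromosome 3 had a median of 66.1% Cast, so that Nes lay below its chromosome there, whereas in mE6 that median was 49.4% and in the remaining 3 astrocyte clones 48.9 to 49.7%. The part of the chromosome in the G4 value was not tested. The mean difference in log2 ratio was 0.08 ± 0.22 (adjusted p = 0.904 by edgeR). The log2 fold change was −3.73 ± 0.30 for Cast reads (adjusted p = 2.18e-04) and −3.76 ± 0.34 for 129 reads (adjusted p = 2.9e-04, both by edgeR).

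Synm had fewer allele-specific reads, 95 to 741 per astrocyte library. It was at 30.0% Cast (23.2 to 37.8) in clone 129, 39.1% (35.4 to 43.0) in C2, 22.4% (19.5 to 25.5) in G4, 55.3% (46.1 to 64.1) in mC3 and 16.8% (10.6 to 25.6) in mE6. NPCs were at 33.3% (27.1 to 40.2) in F5, 30.7% (25.3 to 36.8) in mG2 and 33.0% (28.5 to 37.8) in mG6. The 129 allele gave more reads in all of these libraries but mC3, and C2 and G4, both with high Synm, differed from each other. Against equality the log2 ratio was −1.11 ± 0.34 in astrocytes (adjusted p = 0.0372 by edgeR) and −1.06 ± 0.42 in NPCs (adjusted p = 0.111 by edgeR). The astrocyte call was lost when any 1 library other than mC3 was left out, with adjusted p-values of up to 0.107. The chromosome 7 medians were 49.5 to 50.1% in astrocytes.

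**Figure D4:**
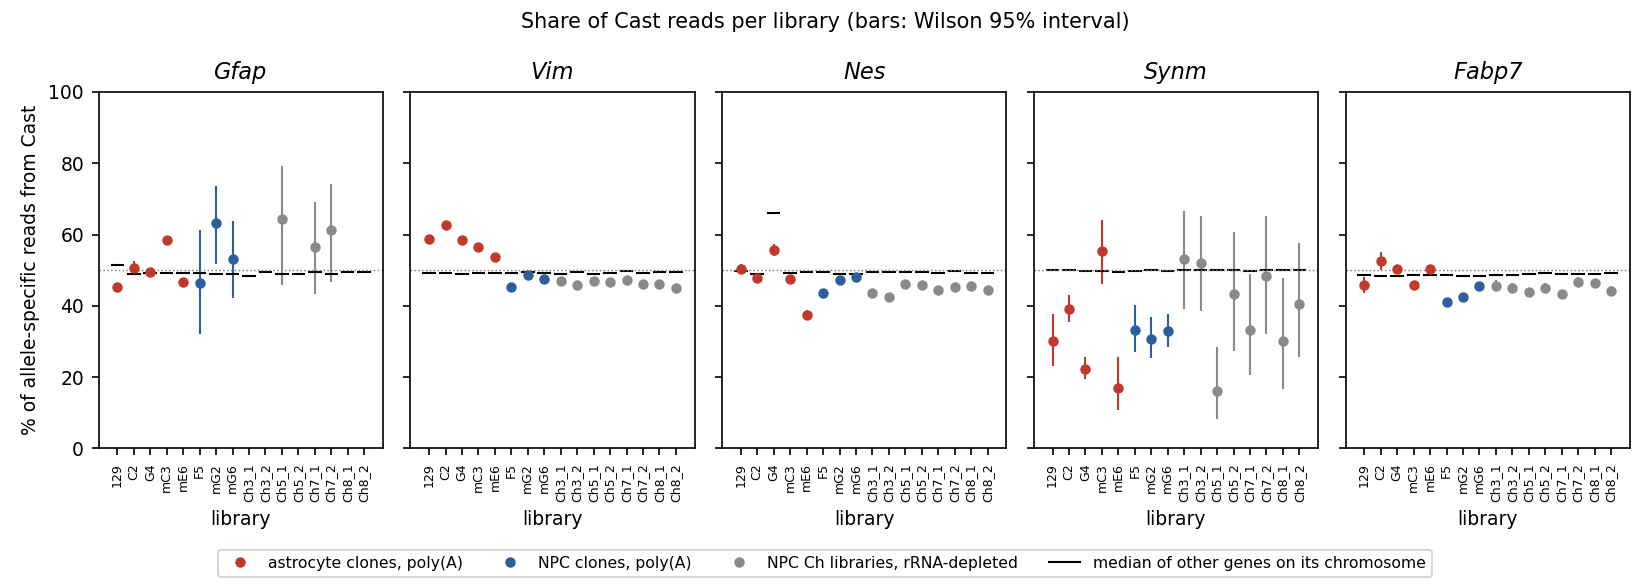
Percent Cast of the 5 genes in each library with at least 20 allele-specific reads of the gene (points, with Wilson 95% intervals), and the median of the other genes on the same chromosome in that library (black lines). Vim lies at 53.6 to 62.7% in astrocytes and at 45.0 to 48.6% in all 11 NPC libraries, and the chromosome 3 line of clone G4 stands at 66.1%.

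**Figure D5:**
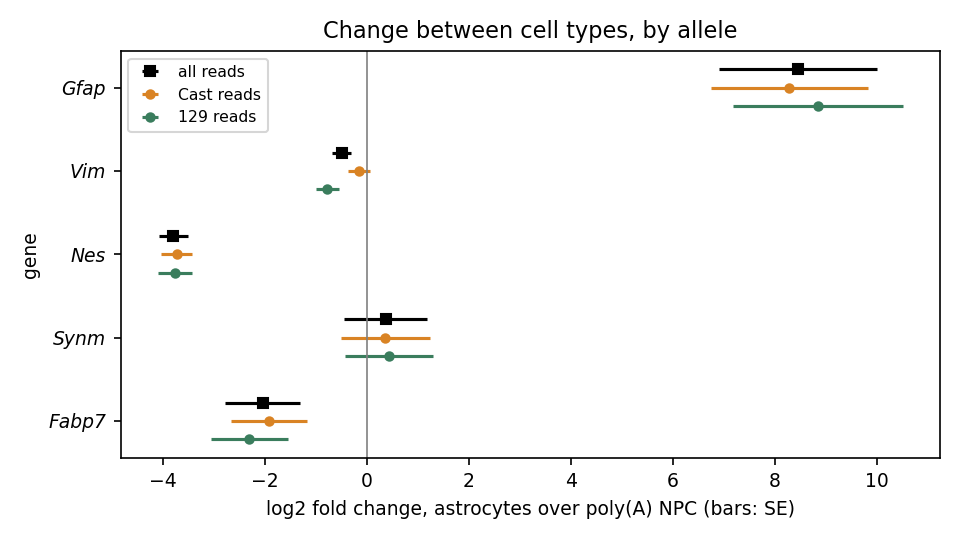
Log2 fold change of astrocytes over poly(A) NPCs (points, with SE as bars) from all reads, Cast reads and 129 reads. The alleles lie together for Nes and apart for Vim, at −0.15 for Cast and −0.77 for 129 reads.

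The Ch clones, with 2 libraries each, allowed a test between NPC clones, in which 16.6% of 17095 genes passed. Nes was at 982 and 971 CPM in Ch3, 867 and 838 CPM in Ch5, 732 and 734 CPM in Ch7 and 699 and 621 CPM in Ch8. The libraries of a clone lay together, and the clones differed (adjusted p = 0.00693 by edgeR). Fabp7 was at 1351 and 1296 CPM in Ch3, 1850 and 1965 CPM in Ch5, 1453 and 1408 CPM in Ch7 and 1649 and 1798 CPM in Ch8 (adjusted p = 0.0105 by edgeR). Its order differed from that of Nes, with Ch3 the lowest.

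Gfap was low in all Ch libraries and highest in Ch7, at 4.37 and 2.63 CPM, against 0.43 and 0.46 CPM in Ch8 (adjusted p = 0.00487 by edgeR). It was at 1.11 and 0.56 CPM in Ch3 and at 1.66 and 0.73 CPM in Ch5. Synm was highest in Ch3, at 6.05 and 5.01 CPM, and at 3.51 CPM or less in the other clones (adjusted p = 0.0186 by edgeR). Vim, at 1331 to 1721 CPM, did not pass (adjusted p = 0.468 by edgeR). Without Ch3 library 2 the call was lost for Nes (0.0505), Synm (0.066) and Fabp7 (0.06), without Ch3 library 1 for Synm (0.134) and without Ch7 library 1 for Gfap (0.0595).

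The allelic ratio differed between Ch clones for Nes (adjusted p = 0.00693 by edgeR, where 9.32% of 8420 genes passed). Summed over its libraries, Nes was at 42.9% Cast (42.3 to 43.6) in Ch3, 46.0% (45.4 to 46.6) in Ch5, 44.9% (44.2 to 45.6) in Ch7 and 45.0% (44.3 to 45.8) in Ch8. The call was lost without Ch3 library 2 (0.332) or Ch5 library 1 (0.0962). Vim (45.5 to 46.8%), Fabp7 (44.5 to 45.3%) and Synm (26.3 to 52.6%, on 62 to 97 reads per clone) did not pass, with adjusted p-values of 0.463, 0.946 and 0.227. Gfap had 7 to 97 allele-specific reads per clone and was too low to test.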

How the data were processed

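RNA-seq libraries of clonal F1 hybrid cells were analysed, 16 in all. The members and gene lists were chosen with earlier results of these data known. Per the methods of the study and the labels, the authors aligned paired reads with TopHat (2.1.0) and Bowtie2 to a genome masked at strain variants (GRCm38), assigned them to alleles with SNPsplit and counted read pairs per gene by strand with featureCounts (1.5.1); the annotation version is not given in the sources used here. The deposited counts hold Cast reads, 129 reads and all reads per gene, without normalization. The deposited fraction of Cast reads, given from 10 reads upwards, was not used, as ratios were computed from the counts.

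Samples were grouped by their labels. CPM used TMM scaling. Expression was tested with edgeR (4.0.16) quasi-likelihood F-tests after filterByExpr, within poly(A) libraries and, separately, between Ch clones. Allelic ratios were tested as the allele by group term on Cast and 129 counts with library as a block, for autosomal genes that reached 20 such reads in every library. P-values were adjusted by Benjamini-Hochberg over all genes tested, at a threshold of 0.05. Each SE of a log2 fold change or log2 ratio was computed as its absolute value over the square root of its F statistic. Log2 CPM used a prior count of 2. Whether both libraries of a Ch clone came from separate cultures is not given in the labels, and p-values measure the spread between these samples. Exact permutation tests (56 arrangements) used scipy (1.17.1). DESeq2 (1.42.0) was an alternative, as were other scalings, filters, sex, male clones, all NPC clones and leaving out each library. Fits were tested on simulated data.

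Symbols were given to 32722 of 50600 identifiers. Gene positions and promoters are from RefSeq (GRCm38.p6) and exon lengths from the union of GENCODE exons of an older build. Named genes were the 5 members, listed genes that passed or were among the 4 most abundant of their list, the markers used to check labels and the 5 genes most like each member. Counting depth ranged from 20871111 to 105892734 reads, and reads shared with pseudogenes are not separated beyond the counting.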

Additional observations from a re-analysis of the deposited data

Results flagged for a closer look

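Gfap in astrocyte clone 129, at 1977 CPM, stood apart from the other 4 astrocyte clones (65.4 to 254 CPM). The gap to the next clone was 0.901 of the whole range, above the 5% limit of Dixon's test for 5 values (0.71). On the log2 CPM scale the gap was 0.602 of the range, below that limit, so that the mark depends on the scale. CPM and percent Cast of the 5 genes were examined in this way, and chance marks about 1 in 20 such groups.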

How the results depend on the processing

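The direction and the call held for Gfap and Nes expression under every alternative run. Adding the Ch clones to the NPCs, which mixes preparations, raised the genes called from 4644 to 8739 and called Vim (−0.76, adjusted p = 0.00549) and Fabp7 (−2.06, adjusted p = 0.00895), as did DESeq2 (−0.52, adjusted p = 0.0192, and −2.08, adjusted p = 0.0262). For Synm the fold change became −0.61 with sex as a covariate, −1.73 in male clones and −1.33 with the clones of 1 title code, the last chosen after seeing the data. Leaving out 1 library gave 2269 to 4849 genes called (2667 without F5, 2269 without mG2 and 3030 without mG6) and Synm fold changes of −0.14 to 0.63. The cause was not tested.

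For the allelic ratio between cell types, leaving out 1 library gave 6 to 96 genes called, against 108 with all. The number was 46 without C2, 66 without G4, 54 without mC3, 14 without mE6, 6 without F5, 16 without mG2 and 21 without mG6, and 1 gene was called in male clones and 52 with the clones of 1 title code. The log2 difference then ranged from −0.47 to 0.0009 for Gfap, −0.0304 to 0.2344 for Nes and −0.38 to 0.20 for Synm. It was −0.30 for Nes and 0.18 for Synm in male clones, and −0.072 and 0.0363 with 1 title code. By the exact permutation test of percent Cast the differences were 10.8 points for Vim and 5.88 points for Fabp7 (both p = 0.0357) and 0.37 points for Synm (p = 0.964). Against equality, leaving out 1 library gave −0.1127 to 0.0794 for Gfap and −0.2441 to 0.0207 for Nes in astrocytes, and 1270 to 2507 genes called in NPCs (1413 without F5, 1355 without mG2 and 1270 without mG6).

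Between Ch clones, 1509 to 3244 genes were called with 1 library left out, against 2834 (1868 and 1509 without the libraries of Ch3, 1832 and 1803 without those of Ch7), and 4361 with no filter on low counts. With the replicate number as a block 3391 were called. Deviations of same-numbered libraries had correlations of −0.18 to 0.28 between clones, which do not settle whether the numbers pair them. The block changed no call of the 5 genes. Of 341 alternative values of single genes with a test, 301 kept their direction and call. Depth limits the allelic ratios of Gfap in NPCs and of Synm in the Ch clones.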
